A study of Mus musculus with 6 samples.

Results

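The genes described here encode the machinery that carries proteins into mitochondria. They were taken from a table of 34745 mouse genes by name: genes called Timm or Tomm followed by a digit, Timmdc1, Pam16, Samm50, Chchd4, Grpel1, Grpel2, Pmpca, Pmpcb, Mtx1, Mtx2 and Mtx3. This gave 36 genes. Of these, 33 passed the filter on low counts and were tested, Timm8a2 and Tomm20l had 0 counts in every library, and the antisense RNA Tomm6os had at most 4. A count of 0 allows up to 0.271 CPM (counts scaled to a common library size) in the smallest library. RNA came from RAW 264.7 cells, a macrophage line of mouse origin, kept in DMEM with fetal bovine serum. One group received the solvent DMSO and the other received bisphenol AP (BPAP), a bisphenol A analogue, each as 3 libraries. The sources used here do not give the dose or the exposure time. The series asks how BPAP acts on macrophages in the setting of bleomycin-induced lung fibrosis.

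Most mitochondrial proteins are made in the cytosol and imported. They enter through the TOM complex of the outer membrane and are then sorted: barrel proteins to the SAM complex, cysteine-rich proteins of the intermembrane space to a disulfide relay, carriers by small TIM chaperones to the TIM22 complex, and proteins with a presequence to the TIM23 complex. A motor driven by mitochondrial Hsp70 pulls the last class into the matrix, where the processing peptidase cuts off the presequence. Macrophages change the use of their mitochondria when they are activated.

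Library totals lay between 11084705 and 13806559 counts. All 8 macrophage markers, among them Cd68, Csf1r and Adgre1, were counted in every library, with summed levels of 4422 to 5016 CPM in DMSO and 4926 to 5317 CPM in BPAP. Singly they were not steady: 4 were higher and 2 lower in BPAP (edgeR quasi-likelihood test, adjusted p of at most 0.05). Of all tested genes, 16.2% were higher and 15.5% lower. The summed markers of fibroblasts, T cells, B cells, epithelium and endothelium were at most 1.06 CPM for any list and library, and Pdgfra, Dcn, Cd3e, Epcam and Cdh5 were at 0. The library DMSO 1 stood apart in its mitochondrially encoded RNA, which took 10.8% of its counts against 6.53% to 7.55% in the other libraries. The labels do not say whether the replicates were separate cultures, so the spread between libraries may be technical. In bulk RNA, a change in the share of cells and a change in RNA per cell cannot be told apart, and CPM are shares of each library.

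Of the 33 tested import genes, 17 were higher in BPAP and 4 were lower at an adjusted p of at most 0.05 (edgeR quasi-likelihood test, Benjamini-Hochberg adjustment over all 11711 tested genes). Among all tested genes, 16.2% were higher and 15.5% lower, against 51.5% and 12.1% of the import genes. In either direction, 31.7% of all tested genes changed. The genes that rose belong to the entry gate (Tomm7, Tomm5, Tomm20, Tomm22), the small TIM chaperones (Timm8a1, Timm13, Timm10, Timm8b), the TIM23 channel (Timm50, Timm17a, Timm23, Timm21) and, singly, Chchd4, Grpel1, Samm50, Timm22 and Timmdc1. The genes that fell were Tomm34, Mtx3, Tomm40l and Timm44. The rises were modest, from 1.31-fold in Timm21 to 1.86-fold in Tomm7. The median log2 fold change of the 33 genes was 0.39, against 0.02 for all tested genes. Summed over all members, the level was 1307, 1360 and 1393 CPM in DMSO and 1591, 1739 and 1684 CPM in BPAP.

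The BPAP values lay above all DMSO values in 22 of the 33 genes and below them in 4, against 25.2% and 23.8% of all tested genes (49.0% in either direction). Leaving out 1 library at a time, 13 to 17 genes were higher, with the fewest without DMSO 1. The falls were less stable: 1 gene was lower without DMSO 1, DMSO 2, DMSO 3 or BPAP 1, 2 were lower without BPAP 2 and 3 without BPAP 3. Calls over all genes also became fewer in these fits. Of 11837 to 11854 genes tested, 1244 to 1654 were higher and 1235 to 1660 lower. With every library kept, these counts were 1901 and 1814 of 11711.

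**Figure D1:**
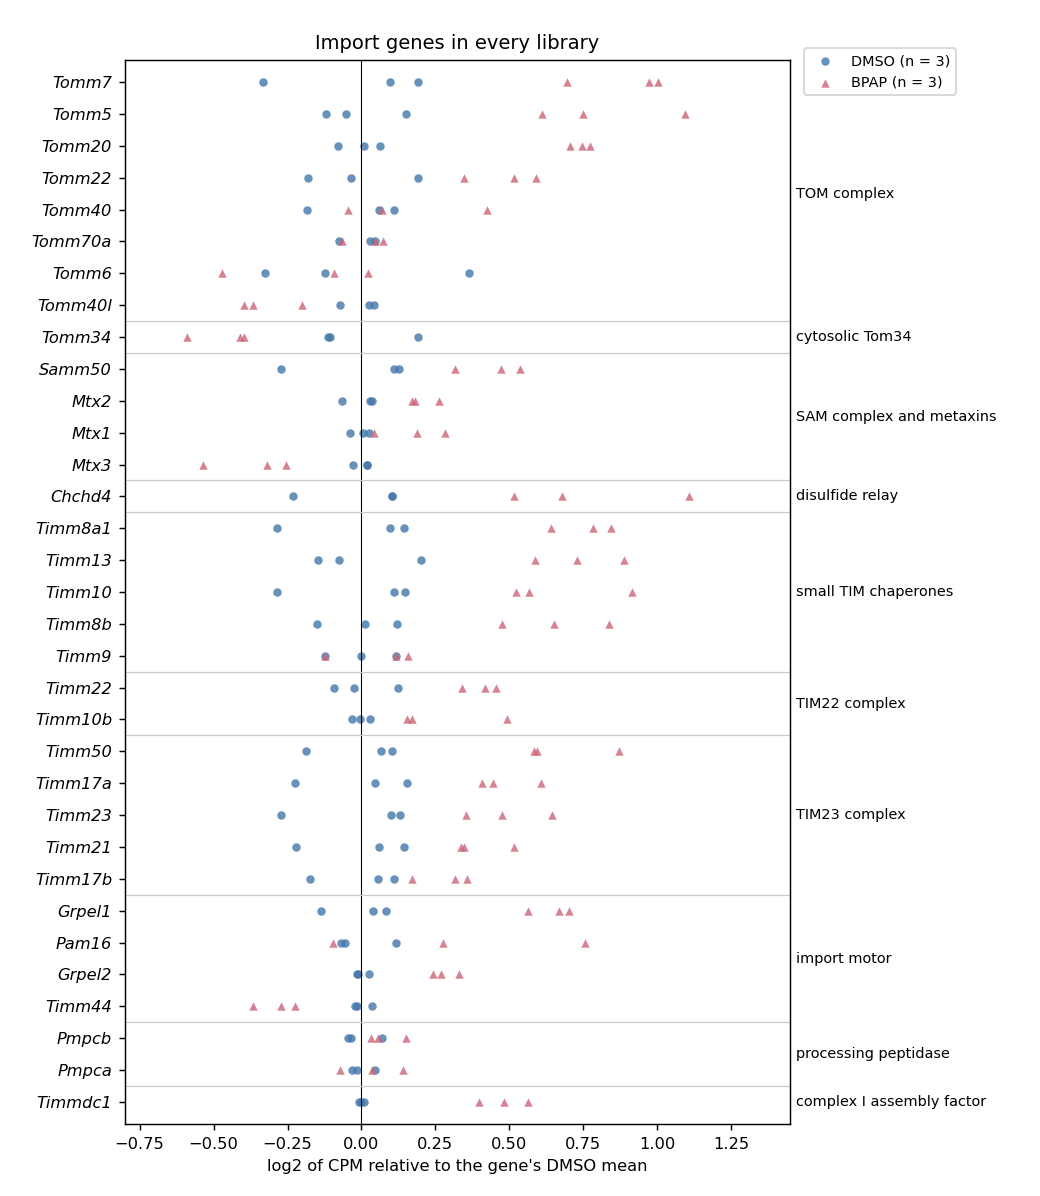
Level of each of the 33 tested import genes in each library, as log2 of its CPM relative to the gene's mean in DMSO (horizontal axis), with genes grouped by the machine they belong to. Circles are the 3 DMSO libraries and triangles the 3 BPAP libraries; the triangles of 22 genes lie wholly to the right of the circles and those of 4 genes wholly to the left.

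Fold changes in this comparison depended on gene length, and this bears on short genes such as those of the small TIM and small TOM subunits. Across all tested genes, log2 fold change and merged exon length had a Spearman correlation of -0.40, and across the 33 import genes of -0.46, a description over genes that share the same 6 libraries. The merged exons of the import genes had a median of 3582 bases, against 4296 for all tested genes. A fit that takes out each library's trend in exon length and GC content, called the length-corrected fit, is therefore given beside the plain values. In it, 12 import genes were higher and 3 lower, where 11.8% of the 11665 genes tested were higher and 10.9% lower, and the median log2 fold change of the import genes was 0.23. Of the 17 genes that rose, 10 remained higher in that fit. Timm10, Timm22, Timm23, Timm8a1, Timm8b, Timmdc1 and Tomm22 did not pass, while Grpel2 and Tomm70a passed as higher. Of the 4 that fell, 3 remained lower and Mtx3 did not pass. Taking out the trend in the transcript length implied by the deposited FPKM left 9 higher and 2 lower, where 12.2% of all genes tested were higher and 12% lower (24.2% in either direction). Samm50, Timm10, Timm21, Timm22, Timm8a1, Timm8b, Timmdc1 and Tomm22 then did not pass as higher, nor Timm44 and Tomm40l as lower. Whether the trend with length arose in the cells or in the preparation of the libraries was not tested.

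**Figure D2:**
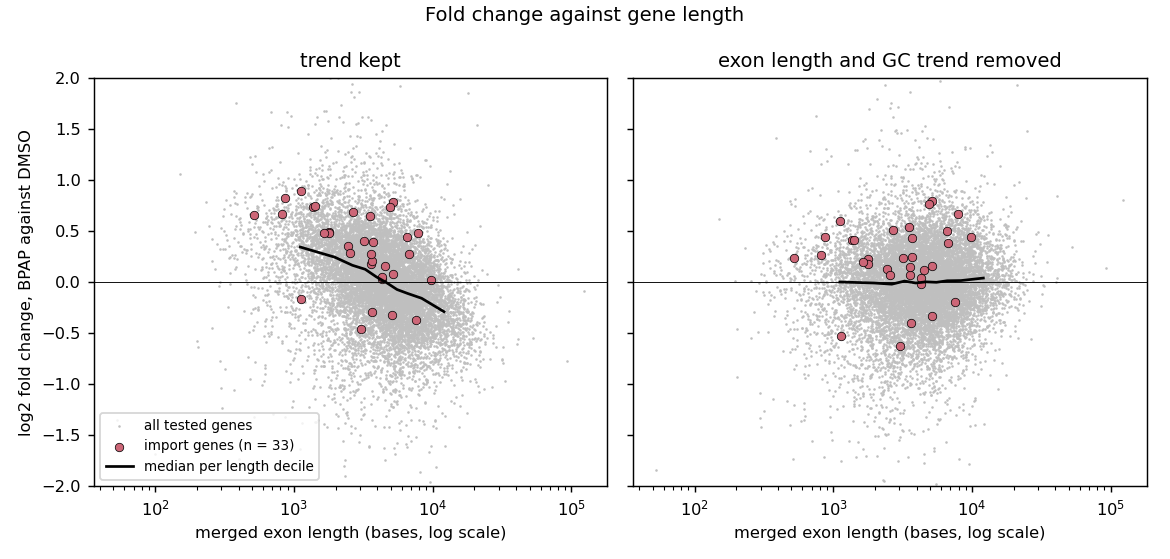
Log2 fold change of BPAP against DMSO (vertical axis) against merged exon length in bases (horizontal log axis) for all tested genes (grey) and the 33 import genes (red), in the plain fit (left) and the length-corrected fit (right); genes beyond 2 in either direction are outside the panels. The black line, the median in 10 equal bins of genes by length, falls from left to right in the plain fit and is nearly flat in the other, where most import genes still lie above 0.

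Among the TOM subunits, 4 of 8 tested genes rose, 1 fell and 3 did not pass, where 16.2% of all tested genes were higher and 15.5% lower. Tomm20 encodes the receptor that binds presequences (chromosome 8, 126930664 to 126945921, GRCm38). It had the smallest p of all members. Its level was 57.7, 63.6 and 61.2 CPM in DMSO and 99.2, 104 and 102 CPM in BPAP, 1.67-fold higher (log2 fold change 0.74, SE 0.09, adjusted p = 0.000557). The libraries of each group lay close together and far from those of the other, and in the length-corrected fit the difference was 0.77 (adjusted p = 0.000899). Tomm22, the receptor that also organises the complex, was at 45.3, 50.1 and 58.7 CPM in DMSO and 65.4, 73.4 and 77.3 CPM in BPAP. It rose 1.40-fold (adjusted p = 0.0112), with every BPAP library above every DMSO library, but not in the length-corrected fit (0.20, adjusted p = 0.199).

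Tomm7 and Tomm5 encode small subunits that sit around the channel. Tomm7 (chromosome 5, 23838944 to 23844161) was at 53.9, 40.0 and 57.5 CPM in DMSO and 81.5, 98.9 and 101 CPM in BPAP, the largest rise among the members at 1.86-fold (log2 fold change 0.89, SE 0.14, adjusted p = 0.00212). Tomm5 was at 20.8, 21.8 and 25.1 CPM in DMSO and 34.5, 48.2 and 38 CPM in BPAP, 1.78-fold higher (adjusted p = 0.0026). Neither gene's groups overlapped, although the DMSO libraries of Tomm7 and the BPAP libraries of Tomm5 were widely spread. Both are short, with merged exons of 1125 and 868 bases, and the length-corrected fit gave 0.60 and 0.44, still past the threshold (adjusted p = 0.0134 and 0.0327). The call of Tomm5 there was lost without DMSO 1, DMSO 2 or BPAP 2 (adjusted p = 0.0656 to 0.105). The small subunit gene Tomm6 did not pass (log2 fold change -0.16, 95% interval -0.59 to 0.26). Its value is uncertain, because it shares 1648 bases with Gm21981 on the same strand, and that gene had a mean count of 1243 against 300 for Tomm6.

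The channel itself and the receptor for carrier proteins did not pass. Tomm40 encodes the pore of the outer membrane and was at 31.0, 36.7 and 38 CPM in DMSO and 34.1, 47.2 and 36.9 CPM in BPAP, with a log2 fold change of 0.16 and an interval of -0.15 to 0.47. The groups overlapped and BPAP 2 stood highest. Tomm70a, the receptor that takes carrier precursors from cytosolic chaperones, had the most counts of all members. Its level was 147, 160 and 158 CPM in DMSO and 148, 163 and 160 CPM in BPAP, with a log2 fold change of 0.02 and an interval of -0.17 to 0.21. Its length is in doubt, at 9777 bases of merged exons but 3778 implied by its FPKM. It passed as higher in the length-corrected fit (0.44, adjusted p = 0.0276), but not there without DMSO 1 or DMSO 3 (adjusted p up to 0.0932), nor with the FPKM length trend taken out instead (-0.06, adjusted p = 0.585).

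Tomm40l, the paralogue of the channel gene, was at 49.9, 50.5 and 46.6 CPM in DMSO and 37.2, 38 and 42.6 CPM in BPAP. The gene fell 1.25-fold (log2 scale -0.32, SE 0.10, adjusted p = 0.0328), and the groups did not overlap. The call was lost without any 1 library but BPAP 3 (adjusted p = 0.0559 to 0.113), and likewise in the length-corrected fit (0.0572 to 0.101). Tomm34 encodes a cytosolic co-chaperone of Hsp70 and Hsp90 that escorts precursors and is no subunit of the complex. Its level fell from 56.8, 46.2 and 45.9 CPM in DMSO to 37.7, 33 and 37.4 CPM in BPAP (log2 fold change -0.46, SE 0.12, adjusted p = 0.0139), and it remained lower in every fit tried. Tomm34 shares 848 bases with Stk4 on the opposite strand, a gene with a mean count of 1360 against 530, so its counts are uncertain.

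Upstream sequences are shown for 4 genes because they form contrasting pairs in the plain fit. There, of the receptors, Tomm20 rose and Tomm70a did not pass, and of the chaperone partners, Timm10 rose and Timm9 did not pass. In the length-corrected fit the calls no longer set either pair apart. Tomm20 and Tomm70a were both higher (0.77 and 0.44), and Timm10 and Timm9 both did not pass (0.27 and 0.04). Tomm20 and Timm10 still had the larger value of their pair. Values with the FPKM length trend taken out are given with the ratios of these pairs. Each sequence is that of RefSeq for the 250 bases before the start site in GRCm38.p6, on the gene's own strand from 5′ to 3′. Capitals mark matches, on either strand, to GCGC, any pair of bases and GCGC again, the core recognised by the mitochondrial gene regulator NRF1, or to CCGGAAG, the core recognised by ETS factors such as GABPA. The windows are chr8:126945922-126946171 (minus strand), chr16:57121464-57121713 (plus), chr2:84826771-84827020 (plus) and chr12:71136676-71136925 (minus).
Tomm20: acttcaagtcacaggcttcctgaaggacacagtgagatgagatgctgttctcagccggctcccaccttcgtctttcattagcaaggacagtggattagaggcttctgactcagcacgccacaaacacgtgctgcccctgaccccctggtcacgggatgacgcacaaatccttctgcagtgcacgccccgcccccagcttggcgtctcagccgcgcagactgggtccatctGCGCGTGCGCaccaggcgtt
Tomm70a: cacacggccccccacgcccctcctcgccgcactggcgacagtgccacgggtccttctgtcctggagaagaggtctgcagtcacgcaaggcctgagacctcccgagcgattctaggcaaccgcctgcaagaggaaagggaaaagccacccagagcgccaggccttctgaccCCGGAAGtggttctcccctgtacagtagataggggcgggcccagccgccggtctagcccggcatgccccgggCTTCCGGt
Timm10: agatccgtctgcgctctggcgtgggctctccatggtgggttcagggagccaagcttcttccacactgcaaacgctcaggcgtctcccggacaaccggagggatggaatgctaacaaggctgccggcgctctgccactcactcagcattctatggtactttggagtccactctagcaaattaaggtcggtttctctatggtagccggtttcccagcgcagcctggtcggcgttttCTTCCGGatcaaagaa
Timm9: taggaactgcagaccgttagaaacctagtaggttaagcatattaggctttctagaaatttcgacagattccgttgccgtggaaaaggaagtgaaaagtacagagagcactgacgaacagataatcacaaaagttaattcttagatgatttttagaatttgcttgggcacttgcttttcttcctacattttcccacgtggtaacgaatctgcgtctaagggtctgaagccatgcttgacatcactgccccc
Tomm20 has 1 NRF1 match, which begins at position -20 with the start site at 0. Tomm70a has ETS matches beginning at -80 and -8, and Timm10 has 1 at -16; its other matches, at 13 and 16, lie after the start site and are not printed. The window of Timm9 holds neither motif.

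A RefSeq promoter window of 300 bases, which adds the bases from the start site on, was found for 29 of the 33 tested import genes. The ETS core was in the windows of 14 of them (48.3%), against 21.8% of the 8605 tested genes with a window and 8.86% of all 32851 windows. It was found in 6 of the 15 import genes that rose and in 8 of the 14 that did not. The NRF1 core was in 4 genes (13.8%), Chchd4, Pam16, Timm8b and Tomm20, against 16.1% of tested genes and 6.23% of all windows. The antioxidant element TGACNNNGC was in 2 (6.9%), Mtx2 and Tomm20, against 17.2% of tested genes and 12.4% of all windows. The ATF4 element TGATGNAAN was in 0, against 2.66% of tested genes and 3.95% of all windows. All 4 were searched on both strands, and a match is not a measured binding site.

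The SAM complex builds barrel proteins into the outer membrane. Samm50, its central subunit, was at 63.4, 83.6 and 82.6 CPM in DMSO and 95.2, 111 and 106 CPM in BPAP, 1.36-fold higher (log2 fold change 0.44, SE 0.12, adjusted p = 0.0184). DMSO 1 was the lowest library, and without it the gene did not pass (log2 fold change 0.31, adjusted p = 0.057). The metaxins are its partners. Mtx1 and Mtx2 missed the threshold, at 0.18 and 0.21 on the log2 scale (adjusted p = 0.233 and 0.112), although the BPAP values of both lay above all DMSO values. Mtx1 shares 2740 bases with Gm43737 on the opposite strand, a gene with a mean count of 338 against 353, so its counts are uncertain. Mtx3 was lower, at 24.5, 23.7 and 24.5 CPM in DMSO and 19.4, 16.7 and 20.3 CPM in BPAP (log2 fold change -0.37, adjusted p = 0.0322). That call was lost without any 1 library but BPAP 3 (adjusted p = 0.0634 to 0.0919) and in the length-corrected fit (0.166).

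Chchd4 encodes the oxidoreductase at the heart of the disulfide relay, known as Mia40 in yeast, which traps cysteine-rich proteins in the intermembrane space (chromosome 6, 91462172 to 91473546). It was at 17.2, 21.7 and 21.7 CPM in DMSO and 32.3, 43.5 and 28.9 CPM in BPAP. The rise was 1.72-fold (log2 fold change 0.79, SE 0.16, adjusted p = 0.00652), and the groups did not overlap, with BPAP 2 the highest library. At 5192 bases of merged exons it is not a short gene, and the length-corrected fit gave 0.80, the largest value among the members there (adjusted p = 0.00979).

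The small TIM chaperones ferry water-insoluble precursors across the intermembrane space. Of their 5 tested genes 4 rose, where 16.2% of all tested genes were higher. Timm13 was at 46.1, 48.5 and 58.8 CPM in DMSO and 76.7, 94.5 and 84.6 CPM in BPAP, 1.67-fold higher (log2 fold change 0.74, SE 0.12, adjusted p = 0.00212). Timm8b, a member of the group that partners Timm13, rose from 31.1, 37.5 and 34.8 CPM to 47.9, 61.6 and 54.2 CPM (log2 fold change 0.66, adjusted p = 0.00355). Timm8a1, the mouse counterpart of the gene mutated in the human deafness-dystonia syndrome, rose from 3.30, 4.3 and 4.44 CPM to 6.27, 6.91 and 7.22 CPM (log2 fold change 0.75, adjusted p = 0.0124). Timm10 rose from 9.18, 12.4 and 12.1 CPM to 16.1, 21.1 and 16.6 CPM (log2 fold change 0.67, adjusted p = 0.0118). In all 4 genes the BPAP values lay above all DMSO values, as in 25.2% of all tested genes.

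Timm9, whose product forms a hexamer with that of Timm10, did not pass. It was at 8.63, 9.39 and 10.2 CPM in DMSO and 8.63, 10.5 and 10.2 CPM in BPAP (log2 fold change 0.05, interval -0.28 to 0.38), and the groups overlapped almost fully. The 4 genes that rose are short, with merged exons of 518 to 1421 bases, against 4282 for Timm9. The FPKM of Timm9 imply a length of only 1018 bases, however, shorter than the 1139 of Timm10, so this contrast depends on the length used. In the length-corrected fit, Timm13 was still higher (log2 fold change 0.41, adjusted p = 0.0295), though not without DMSO 1, DMSO 2, BPAP 2 or BPAP 3 (adjusted p = 0.0603 to 0.109). Timm8b, Timm8a1 and Timm10 were not called in that fit, at log2 fold changes of 0.23, 0.42 and 0.27 (adjusted p = 0.13, 0.108 and 0.198).

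**Figure D3:**
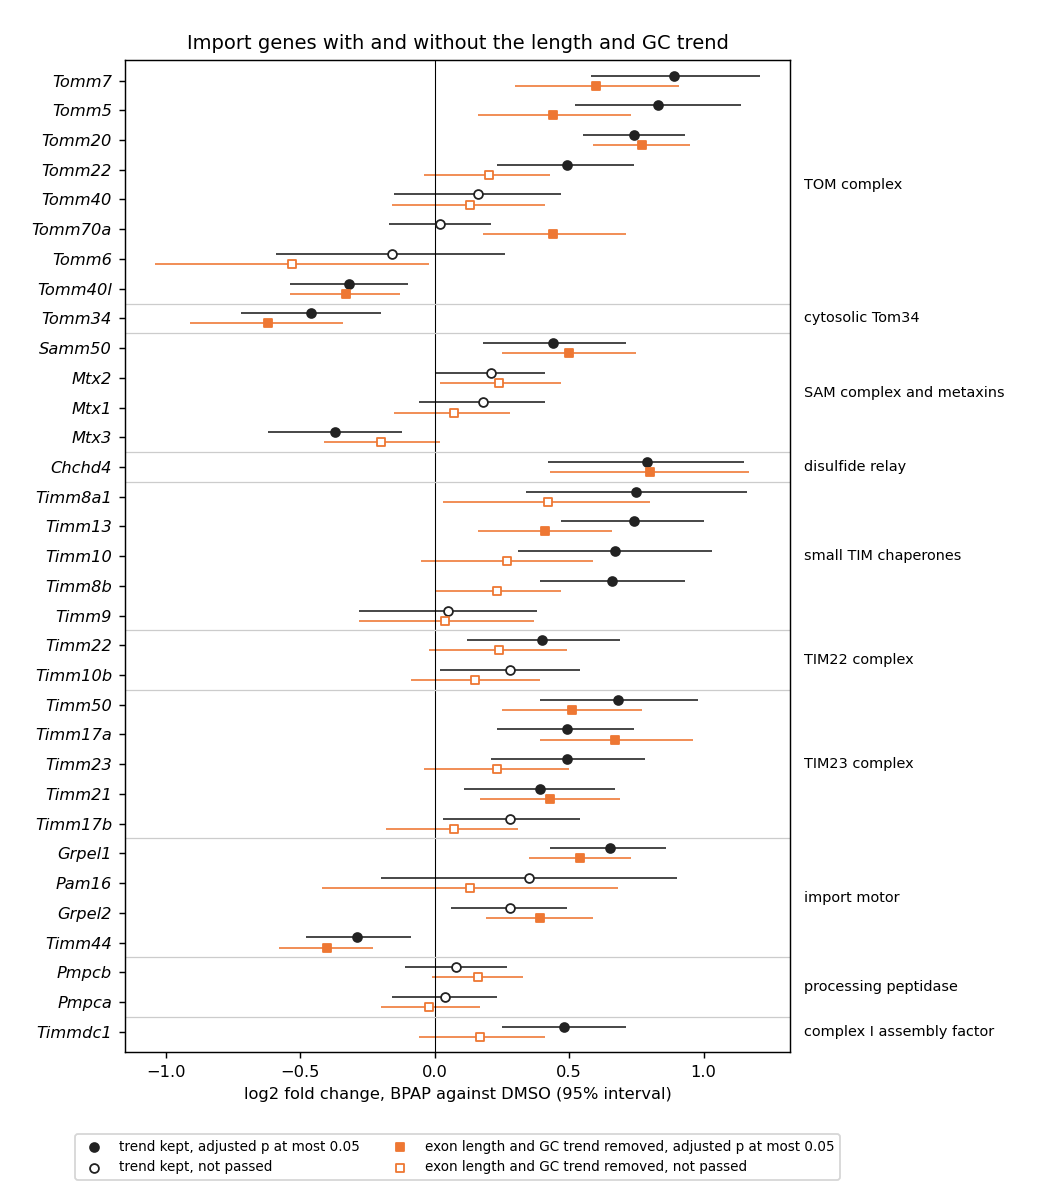
Log2 fold change of BPAP against DMSO with its 95% interval (horizontal axis) for the 33 tested import genes in the plain fit (black circles) and the length-corrected fit (orange squares); filled symbols have an adjusted p of at most 0.05. Tomm7, Tomm5, Tomm22, Timm8b, Timm8a1, Timm10 and Timm13 move towards 0 in the latter, Tomm6 moves away from it (-0.16 and -0.53), and Tomm20 (0.74 and 0.77), Chchd4 (0.79 and 0.80) and Timm17a (0.49 and 0.67) do not fall.

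The TIM22 complex inserts carriers into the inner membrane. Timm22, its channel, was at 10.6, 12.3 and 11.1 CPM in DMSO and 14.3, 15.5 and 15.1 CPM in BPAP (log2 fold change 0.40, adjusted p = 0.0353). This call was lost without any 1 library (adjusted p = 0.0582 to 0.112), with no filter on low counts (0.0582), in DESeq2 (0.0684) and in the length-corrected fit (0.162). Timm10b, a small subunit docked on that complex, had a log2 fold change of 0.28 and did not pass (adjusted p = 0.0902). It overlaps Dnhd1 on the same strand and Arfip2 on the opposite one.

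In the TIM23 complex, the gate for presequence proteins, 4 of 5 genes rose, where 16.2% of all tested genes were higher. In all 5, every BPAP library was above every DMSO library, as in 25.2% of all tested genes. The length-corrected fit had 3 of the 5 higher, where 11.8% of all genes tested were higher. Timm50, the receptor that meets the presequence on the inner side, was at 12.9, 15.4 and 15.8 CPM in DMSO and 22, 26.9 and 22.2 CPM in BPAP, 1.61-fold higher (log2 fold change 0.68, SE 0.13, adjusted p = 0.00478). It passed in the length-corrected fit (0.51, adjusted p = 0.0144), there lost only without DMSO 2 (0.0518). Timm17a, a channel subunit known in human cells to be lost when stress slows translation, rose from 45.2, 54.5 and 58.7 CPM to 70.0, 80.5 and 71.8 CPM (log2 fold change 0.49, adjusted p = 0.0103). Its exons are long, at 7893 bases, and the length-corrected fit gave 0.67. Its paralogue Timm17b did not pass (log2 fold change 0.28, interval 0.03 to 0.54, adjusted p = 0.0848).

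Timm23, the other channel subunit, was at 28.6, 37.8 and 37.0 CPM in DMSO and 44.1, 47.9 and 53.9 CPM in BPAP (log2 fold change 0.49, adjusted p = 0.0165). The gene did not pass without DMSO 1 (adjusted p = 0.057), without BPAP 3 (0.0545) or in the length-corrected fit (0.192). Timm21, which links the complex to the outer membrane gate and to the respiratory chain, was at 16.4, 19.9 and 21.1 CPM in DMSO and 24.3, 24.1 and 27.3 CPM in BPAP (log2 fold change 0.39, adjusted p = 0.0366). Its call was lost without DMSO 1, DMSO 2, BPAP 1 or BPAP 3 (adjusted p = 0.0625 to 0.129). It passed in the length-corrected fit (0.43, adjusted p = 0.0289), but not without DMSO 1, DMSO 2, BPAP 2 or BPAP 3 (0.0548 to 0.0774). In Timm23 and Timm21, DMSO 1 was the lowest library.

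The import motor moved in both directions. Grpel1, the exchange factor that resets mitochondrial Hsp70, was at 47.8, 55.6 and 54.0 CPM in DMSO and 77.6, 85.4 and 83.5 CPM in BPAP, 1.56-fold higher (log2 fold change 0.65, SE 0.10, adjusted p = 0.00153). The groups lay well apart. It shares 411 bases with Tada2b on the opposite strand, which had a mean count of 153 against 833 and was itself higher (log2 fold change 0.59, adjusted p = 0.0259). Its paralogue Grpel2 was at 27.5, 26.7 and 26.8 CPM in DMSO and 32.5, 31.9 and 33.9 CPM in BPAP, with no overlap. It narrowly missed the threshold (log2 fold change 0.28, adjusted p = 0.0518), and it passed without BPAP 2 (0.049) and in the length-corrected fit (0.39, adjusted p = 0.014), there lost only without DMSO 2 (0.0558).

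Timm44, which anchors mitochondrial Hsp70 to the channel, was at 73.1, 72.8 and 75.7 CPM in DMSO and 61.2, 63.2 and 57.3 CPM in BPAP, a fall of 1.22-fold (log2 scale -0.29, SE 0.09, adjusted p = 0.03). The groups did not overlap, and the length-corrected fit gave -0.40 (adjusted p = 0.0074). The call was lost without any 1 library but BPAP 2 (adjusted p = 0.0502 to 0.0977). Pam16, which holds the J-protein of the motor in check, was the least counted of the tested members, with at most 61 counts, and did not pass (log2 fold change 0.35, interval -0.20 to 0.90).

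Pmpca and Pmpcb encode the subunits of the processing peptidase that removes presequences in the matrix, and neither passed. Pmpca was at 98.3, 93.3 and 94.3 CPM in DMSO and 105, 90.7 and 97.7 CPM in BPAP (log2 fold change 0.04, interval -0.16 to 0.23). Pmpcb was at 101, 93.3 and 94.0 CPM in DMSO and 107, 98.4 and 100 CPM in BPAP (log2 fold change 0.08, interval -0.11 to 0.27). The groups overlapped in both genes, and the intervals leave out changes of the size seen in Tomm20 or Grpel1. Timmdc1, which resembles the TIM channel proteins but serves the assembly of complex I, was at 19.9, 20 and 19.8 CPM in DMSO and 27.8, 26.2 and 29.4 CPM in BPAP (log2 fold change 0.48, adjusted p = 0.00718). It did not pass in the length-corrected fit (0.17, adjusted p = 0.25).

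Per kilobase of merged exon, mean levels in DMSO ranged from 1.21 CPM in Pam16 to 66.5 CPM in Timm8b, followed by 44.8 in Tomm7, 37.3 in Timm13 and 31.1 in Tomm22. This order depends on the length used: Samm50 was at 11.7 CPM per kilobase but at a mean deposited FPKM of 46.3. Among the 5 tested genes whose log2 CPM, as deviations from their group means, were most like those of Tomm20 over the 6 libraries were Ppap2a, Nudt14, Leng1 and Dscr3, with Pearson r of 0.997 to 1.0. With so few libraries, 2.93% of all tested genes had an r above 0.9.

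Ratios of CPM within each library set partners and paralogues side by side in 9 pairs, which were chosen with the genes' values known. The ratio of Tomm20 to Tomm70a was 0.394, 0.398 and 0.387 in DMSO and 0.668, 0.635 and 0.64 in BPAP, a shift of 0.72 on the log2 scale with no overlap. The ratio of Timm10 to Timm9 was 1.06, 1.32 and 1.19 in DMSO and 1.87, 2.02 and 1.63 in BPAP, a shift of 0.63. That of Timm23 to Timm44 shifted by 0.79, from 0.467 ± 0.0663 to 0.807 ± 0.118 (SD, n = 3 per group). Tomm40 to Tomm40l shifted by 0.47 and Grpel1 to Grpel2 by 0.37. In each of these 5 pairs the groups did not overlap, and the 2-sided exact permutation p was 0.1, the smallest that 3 against 3 libraries allow (0.18 adjusted over the 9 pairs).

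The other 4 pairs overlapped between the groups. Timm13 to Timm8b was at 1.49 ± 0.198 in DMSO and 1.57 ± 0.0346 in BPAP, Timm8a1 to Timm8b at 0.116 ± 0.0107 and 0.125 ± 0.0115, Timm17a to Timm17b at 2.09 ± 0.478 and 2.38 ± 0.163, and Pmpca to Pmpcb at 0.99 ± 0.0185 and 0.961 ± 0.0341 (SD, n = 3 per group). Their exact permutation p was 0.3 to 0.6 (0.386 to 0.6 adjusted over the 9 pairs). These ratios are not corrected for length. In the length-corrected fit Tomm20 and Tomm70a changed by 0.77 and 0.44 on the log2 scale, and Timm10 and Timm9 were at 0.27 and 0.04, neither past the threshold. With the FPKM length trend taken out, the values were 0.71 and -0.06 for the first pair and 0.39 and -0.25 for the second, with only Tomm20 past the threshold.

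**Figure D4:**
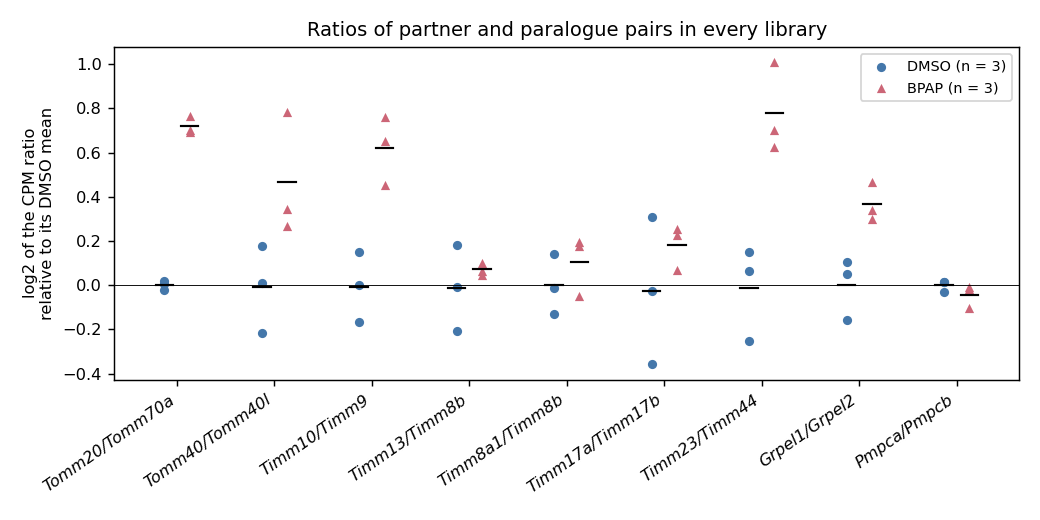
Ratio of the CPM of the genes of each pair in each library, as log2 relative to the mean ratio in DMSO (vertical axis), for 9 pairs of partners or paralogues (horizontal axis); circles are DMSO libraries, triangles BPAP libraries and black bars the means of 3. The groups are apart in 5 pairs, most tightly in Tomm20/Tomm70a, and overlap in the other 4.

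Other genes of the pathway were taken from 6 lists. Of their 70 tested genes, 23 were higher and 1 was lower (32.9% and 1.43%), against 16.2% and 15.5% of all tested genes. Leaving out 1 library at a time, 15 to 23 were higher, the fewest without DMSO 3, and 0 were lower without DMSO 2, DMSO 3 or BPAP 1.

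In the list of matrix chaperones, 5 of 7 genes rose (71.4%) and 0 fell, against 16.2% and 15.5% of all tested genes. Their median log2 fold change was 0.52. Hspd1 and Trap1 did not pass, at log2 fold changes of 0.16 and -0.11 (adjusted p = 0.187 and 0.364). Hspa9, the mitochondrial Hsp70 itself, rose from 1227 ± 44.3 to 1750.0 ± 77.9 CPM (SD, n = 3 per group, log2 fold change 0.51, adjusted p = 0.00212). Its J-protein genes Dnajc19 and Dnajc15 rose by log2 fold changes of 0.52 and 0.57 (adjusted p = 0.00579 and 0.00292), and Hspe1, the co-chaperonin, by 0.55 (adjusted p = 0.00164). These 4 also passed in the length-corrected fit, where Hspe1 was lost without any 1 library but BPAP 1 (adjusted p = 0.0549 to 0.134) and Trap1, the matrix Hsp90, passed as lower (-0.32, adjusted p = 0.0185). Dnajc15 did not pass with the FPKM length trend taken out instead (adjusted p = 0.142).

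In the disulfide relay list, 8 of 15 tested genes rose (53.3%) and 0 fell (median 0.32), against 16.2% and 15.5% of all tested genes. Chchd2 was at 107 ± 14.7 CPM in DMSO and 197 ± 28.2 CPM in BPAP, 1.83-fold higher (SD, n = 3 per group, adjusted p = 0.00156), Cmc2 1.73-fold (adjusted p = 0.00386), Ndufb7, of complex I, 1.38-fold (adjusted p = 0.0057) and Gfer, the sulfhydryl oxidase that recharges the product of Chchd4, 1.39-fold (adjusted p = 0.00776). In the length-corrected fit, 3 of the 15 genes were higher, where 11.8% of all genes tested were higher. Cmc2 was among them, though lost without any 1 library but BPAP 2 (adjusted p = 0.0505 to 0.074), and Gfer did not pass (adjusted p = 0.138).

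Of the 13 tested proteases, 3 rose and 1 fell (23.1% and 7.69%, median -0.01), against 16.2% and 15.5% of all tested genes. Clpp, Parl and Lonp1 were higher by log2 fold changes of 0.42, 0.34 and 0.32 (adjusted p = 0.0198, 0.0316 and 0.0423), and Yme1l1 was lower by -0.39 (adjusted p = 0.0363). Each of these calls was lost without some single libraries: Clpp without DMSO 3, BPAP 1 or BPAP 3 (adjusted p = 0.0529 to 0.0825), Parl without any but BPAP 2 (0.0589 to 0.0984), Lonp1 without any but BPAP 1 (0.0514 to 0.136) and Yme1l1 without any but DMSO 1 and BPAP 3 (0.0538 to 0.135). Yme1l1 turned to 0.03 in the length-corrected fit (adjusted p = 0.838), and of the 4 only Lonp1 passed. There, Lonp1 was lost without any 1 library but BPAP 1 (adjusted p = 0.0715 to 0.112). Nor did Lonp1 pass with the FPKM length trend taken out instead (0.178).

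Of 13 insertases and membrane organisers, 2 rose and 0 fell (median 0.25), a share of 15.4% higher that is near the 16.2% of all tested genes. They were 2410015M20Rik, listed by RefSeq with the name Micos13, at 1.64-fold (adjusted p = 0.00205) and Chchd6 at 1.42-fold (adjusted p = 0.0264), both of the MICOS complex that shapes the cristae. The gene 2410015M20Rik passed in the length-corrected fit (0.35, adjusted p = 0.0297), but not without DMSO 1, DMSO 2, BPAP 2 or BPAP 3 (0.0561 to 0.0775). Chchd6 did not pass without DMSO 1, DMSO 3 or BPAP 2 (adjusted p = 0.0546 to 0.11) or in the length-corrected fit (0.137). In that fit, however, 6 of the 13 genes were higher, where 11.8% of all genes tested were higher. Of 13 genes of cytosolic targeting and stalled import, 2 rose and 0 fell (median 0.03), again 15.4% against 16.2%. In the length-corrected fit, 3 of the 13 were higher, against the same 11.8%. Pink1, the kinase that builds up on mitochondria when import fails, rose from 38.2 ± 5.12 to 61.4 ± 4.15 CPM (SD, n = 3 per group, log2 fold change 0.68, adjusted p = 0.00273). Fkbp8, an outer membrane co-chaperone, rose by 0.35 (adjusted p = 0.0144), and did not pass without DMSO 1 (0.0582) or DMSO 3 (0.0505).

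In the list of mitochondrial stress signalling, 3 of 9 genes rose (33.3%) and 0 fell, against 16.2% and 15.5% of all tested genes. The length-corrected fit had 4 of the 9 higher and 1 lower, against 11.8% and 10.9% of all genes tested. The transcription factor genes Ddit3 and Atf5 rose by log2 fold changes of 0.78 and 0.95 (adjusted p = 0.0012 and 0.00445), beside 0.97 in Atf4, and all 3 passed in the length-corrected fit. There, Ddit3 was lost without DMSO 1, DMSO 2, DMSO 3 or BPAP 1 (adjusted p = 0.0515 to 0.0669). Regulators of mitochondrial biogenesis in this list did not pass: Nrf1 had a log2 fold change of 0.18, Gabpa of -0.09, Tfam of 0.31 and Ppargc1b of -0.35 (adjusted p = 0.181, 0.589, 0.072 and 0.0575). Nrf1 passed as higher in the length-corrected fit, at 0.38, and Ppargc1b as lower at -0.41.

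**Figure D5:**
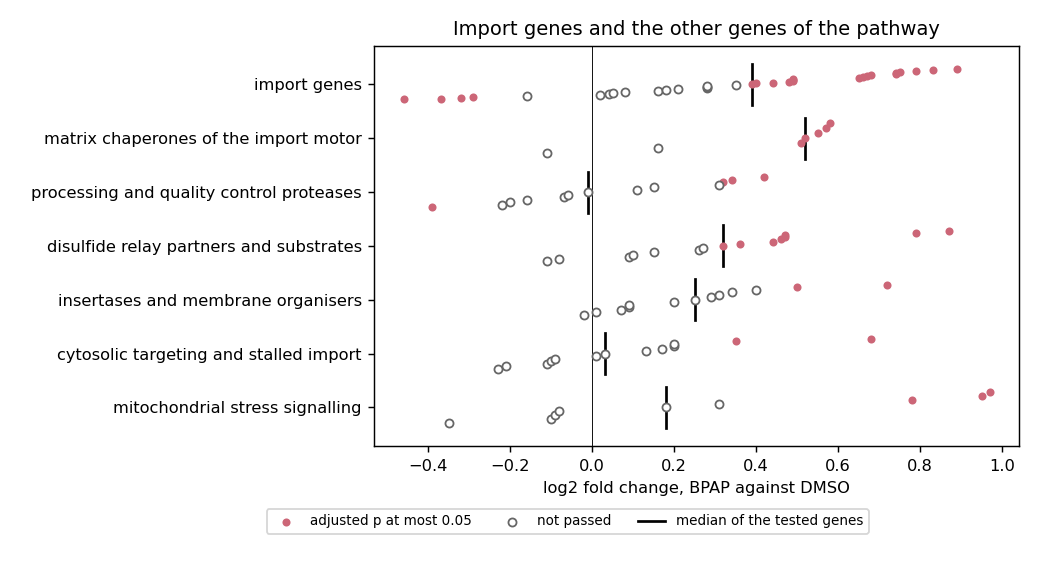
Log2 fold change of BPAP against DMSO (horizontal axis) for the 33 tested import genes and the tested genes of 6 other lists of the pathway; filled points have an adjusted p of at most 0.05 and black bars are medians. Values are those of the plain fit, where the median is highest for the matrix chaperones (0.52) and import genes (0.39). It is near 0 there for the proteases (-0.01) and the genes of cytosolic targeting (0.03). The order differs in the length-corrected fit, which is not drawn. Its medians were 0.42 for matrix chaperones, 0.30 for stress signalling, 0.28 for insertases and organisers and 0.23 for import genes. The disulfide relay list was at 0.08, cytosolic targeting at 0.04 and the proteases at 0.02.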

How the data were processed

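RNA sequencing compared 3 DMSO with 3 BPAP libraries. Groups and replicate numbers come from the sample titles. Per the labels' protocols, RNA was extracted with TRIzol and libraries were made with a VAHTS Universal V6 kit. The authors deposited raw counts and FPKM per gene and library in 1 table. Per the submitters' processing notes, HISAT2 2.0.4, StringTie 1.3.3b and edgeR were used on GRCm38, though the notes do not tie a tool to a step. The annotation release, the strand setting and how reads with several matches were handled were not given in the sources used here.

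From the deposited counts, 18090 genes with 0 counts throughout were set aside, and edgeR's default expression filter left 11711 genes. TMM factors scaled the libraries, and edgeR 4.0.16 (R 4.3.3) ran its quasi-likelihood test with robust dispersions and treatment as the only term. Its p-values were adjusted by Benjamini and Hochberg over every tested gene, and 0.05 was the threshold. CPM are TMM-scaled. Standard errors are the log2 fold change over the root of F, and intervals are at 95%. A count of 3 is the limit that a count of 0 allows, for counting error only.

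Merged exon length and GC content came from GENCODE M21. In the length-corrected fit, lowess curves of span 0.3 through each library's deviations of log2 CPM (prior count of 2) entered as an offset for 11665 genes. The fits were checked on simulated counts. Alternatives were DESeq2 size factors, upper quartile scaling, no filter, DESeq2 1.42.0, limma-voom, limma-trend (limma 3.58.1) on log2(FPKM + 1) of genes with a mean FPKM of at least 1, the trend in the length implied by the deposited FPKM, the replicate block and each library left out. Leaving out libraries in the length-corrected fit was added after the data were seen.

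The members, gene lists, pairs and tests were chosen with earlier results of these data known. Every member is accounted for. Of each list, the text names at most 4 genes past the threshold, those of smallest p. The regulators of mitochondrial biogenesis, Hspd1 and Trap1 were named after their values were seen. Older symbols were matched through RefSeq. The proteins' own sequence motifs were planned but are not analysed here. One gene that the rule on likeness names is not reported here.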

Additional observations from a re-analysis of the deposited data

How the results depend on the processing

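Under DESeq2 size factors, upper quartile scaling, no filter, DESeq2, limma-voom, limma-trend on FPKM and the replicate block, 16 to 18 import genes were higher and 4 lower. The background differed between these fits, with 10171 genes tested in limma-trend, 16655 in DESeq2 and without the filter, and 11711 otherwise. Over all genes, more than the main fit's 1901 were higher only with upper quartile scaling and the block, and fewer in the others. More than its 1814 were lower in all but upper quartile scaling. The FPKM length trend gave 9 import genes higher and 2 lower. Among the other pathway genes it gave 2 lower, as did the length-corrected fit (2), the replicate block with it (2) and limma-trend (2), against 1. Leaving out 1 library gave 13 to 17 import genes higher, 1 to 3 lower, a median of 0.31 to 0.44, 1244 to 1654 of all genes higher, 1235 to 1660 lower, and 15 to 23 other pathway genes higher and 0 to 1 lower. In the length-corrected fit without DMSO 1, 2, 3 or BPAP 1, 2, 3 in turn, 8, 7, 11, 12, 9 and 10 import genes were higher and 2 to 3 lower, with medians of 0.19, 0.2 and up to 0.29. No share of all tested genes is given for these last fits, so their counts have no background beside them. Fits without a library have fewer samples. Otherwise the cause was not tested.

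Same-numbered libraries correlated at 0.101, 0.0542 and 0.00985 in their deviations from the group means, and differently numbered ones at -0.0863 to 0.0454. These values do not settle whether the numbers mark pairs. The main fit did not take them as pairs. With the replicate block 17 import genes were higher and 4 lower, as without it. Calls over all 11711 genes rose in both directions with the block, from 1901 higher and 1814 lower without it. Yme1l1 turned to 0.03 in the length-corrected fit, with or without the replicate block, and to 0.04, 0.11, 0.03, 0.05 and 0.01 in those also without DMSO 2, DMSO 3, BPAP 1, BPAP 2 or BPAP 3. With both the block and the length correction, Tomm6 passed as lower (-0.52). Depth limits the genes at the lowest counts, Pam16 and Timm8a1.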
